A study of Mus musculus with 2 samples.

Results

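The regions described here are 3447 stretches of open chromatin inside introns of protein-coding genes shorter than 100 kb in the mouse cerebral cortex. Among the peaks called in both replicates, they were chosen by position alone. Peaks of both replicates that overlapped were merged into shared regions. A shared region was a member where it lay over 2000 bp from every annotated transcription start site (TSS), its midpoint fell in no exon, and the longest protein-coding gene holding the midpoint was shorter than 100 kb. The members were 7.70% of all 44745 shared regions and 14.4% of the distal ones. No measured height entered the rule beyond the calling of peaks in both replicates. The comparison sets were 6295 regions in introns of genes of 100 kb or more and 13022 distal intergenic regions, chosen by the same distance from a TSS.

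The data are DNase-seq of the left cerebral cortex of male B6CASTF1/J mice aged 2 months, an F1 hybrid strain of C57BL/6J and CAST/EiJ supplied by The Jackson Laboratory. DNase I cuts DNA that is not wrapped in nucleosomes, and clusters of sequenced cut ends are called as peaks. There was 1 group of 2 samples, labelled biological replicates 1 and 2, which the labels describe as tissue of separately numbered males under 1 donor record shared by the strain. The labels name no treatment. The tissue is a mixture of neurons, glia and vessel cells, so a low peak may reflect few cells or little accessibility per cell, which cannot be told apart. With 2 samples of 1 group no test between groups exists, so counts, shares and the value in each replicate are given without p-values.

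Introns hold many of the enhancers of the mammalian genome, short sequences where transcription factors bind and act on a promoter at some distance. In neurons such enhancers are known to carry sites of activity-dependent factors such as AP-1 and of basic helix-loop-helix factors that bind E-boxes. CTCF, a zinc finger protein that halts cohesin and thereby anchors chromatin loops, also binds outside promoters, and its bound sites leave a marked footprint, a short stretch protected from DNase I inside an open region. SP/KLF, EGR and NRF1 factors bind GC-rich sequences that are common in promoters.

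Sequences of members on which the results turn are shown first, from the RefSeq genome of assembly GRCm38.p6 (mm10), plus strand, 5′ to 3′. The set shows some of the 10 tallest members. It adds the tallest member with a match footprinted in both replicates, for each of the motifs most enriched over other intron sequence. The rest of the 10 tallest are not shown, among them Mrps27, which held no footprinted match. Capitals mark matches to the motif named after each gene below, on either strand. Nuak1, an AMPK-related kinase gene, held a CTCF and a TCF4/ASCL-type E-box match in its first intron at chr10:84438101-84438340. The intron of 1700029H14Rik at chr8:13551101-13551360 held an NFI match. Sptbn4, the gene of the spectrin of axon initial segments, held EGR and SP/KLF matches at chr7:27361441-27361660, where an EGR and an SP/KLF match share bases. Itpkb, an inositol trisphosphate kinase gene, held CRE and SP/KLF matches at chr1:180387521-180387760. Cnih2, an auxiliary subunit gene of AMPA receptors, held an RFX match at chr19:5094361-5094540. Thra, a thyroid hormone receptor gene, held an NRF1 match at chr11:98747421-98747680. Each of these matches but the NFI and NRF1 ones belongs to a member among the 10 tallest.
Nuak1: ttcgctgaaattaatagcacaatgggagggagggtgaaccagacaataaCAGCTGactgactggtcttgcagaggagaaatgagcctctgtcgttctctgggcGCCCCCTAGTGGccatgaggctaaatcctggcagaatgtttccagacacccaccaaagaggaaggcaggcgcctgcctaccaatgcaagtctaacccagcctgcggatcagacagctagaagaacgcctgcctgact
1700029H14Rik: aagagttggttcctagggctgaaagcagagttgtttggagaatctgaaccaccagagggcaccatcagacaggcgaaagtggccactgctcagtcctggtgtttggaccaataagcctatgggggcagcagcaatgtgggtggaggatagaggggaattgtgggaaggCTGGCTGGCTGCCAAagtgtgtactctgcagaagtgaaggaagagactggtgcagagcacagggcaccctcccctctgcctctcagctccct
Sptbn4: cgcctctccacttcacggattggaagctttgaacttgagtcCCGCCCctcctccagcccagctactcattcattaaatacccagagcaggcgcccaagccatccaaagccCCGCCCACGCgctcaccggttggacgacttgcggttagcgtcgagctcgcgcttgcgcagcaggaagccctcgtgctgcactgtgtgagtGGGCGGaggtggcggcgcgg
Itpkb: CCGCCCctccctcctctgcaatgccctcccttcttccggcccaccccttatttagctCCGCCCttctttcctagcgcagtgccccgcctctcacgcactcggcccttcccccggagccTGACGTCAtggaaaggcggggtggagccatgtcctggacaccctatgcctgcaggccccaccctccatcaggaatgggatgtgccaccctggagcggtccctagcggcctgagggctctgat
Cnih2: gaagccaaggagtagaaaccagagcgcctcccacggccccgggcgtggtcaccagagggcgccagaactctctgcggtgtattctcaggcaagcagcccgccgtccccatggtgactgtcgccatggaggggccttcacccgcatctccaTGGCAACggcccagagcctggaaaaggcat
Thra: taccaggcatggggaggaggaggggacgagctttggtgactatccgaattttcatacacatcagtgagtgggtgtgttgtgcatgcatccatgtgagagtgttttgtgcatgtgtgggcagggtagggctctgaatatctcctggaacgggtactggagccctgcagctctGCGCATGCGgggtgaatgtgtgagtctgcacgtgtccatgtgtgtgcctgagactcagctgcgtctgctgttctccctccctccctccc

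Members were narrow and of moderate height. The median width was 220 bp, with quartiles of 190 and 257 bp and a largest width of 880 bp. The height of a peak is the authors' own signal, on a scale that is not given, and it can be compared between regions within a replicate. Member heights in replicate 1 ran from 0.225 to 20.7 with a median of 1.01. In replicate 2 they ran from 0.209 to 14.8 with a median of 0.871. In replicate 1 the members stood above the longer-gene introns (0.838) and the intergenic regions (0.879), and well below the regions near a TSS (2.06). In replicate 2 members (0.871) and longer-gene introns (0.837) lay closer together, intergenic regions had 0.790 and regions near a TSS 1.27. Over the 3447 members the heights of both replicates correlated with a Spearman rho of 0.648 and a Pearson r of 0.701 on the log2 scale. The points are regions of the same 2 libraries and share their depth and base composition.

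The scales of both replicates may differ, so the ratio between them is read only against other regions. The log2 of the replicate 2 height divided by the replicate 1 height had a median of -0.46 over all shared regions and -0.29 over the members, and replicate 2 was higher in 25.7% and 31.5% of them. The median ratio was -0.06 in longer-gene introns, -0.23 in intergenic regions and -0.68 near TSSs. Every member held bases with a false discovery rate (FDR) under 0.001 in both replicates, as did every other shared region. Members are built from called peaks of both replicates, so low FDR values around their midpoints are set by that choice. The listed accessible interval was confined to the centre: in replicate 1 an FDR under 0.05 was listed in 99.8% of members at 10 bp from the midpoint, in 88.0% at 110 bp, in 18.2% at 210 bp and in 2.73% at 990 bp, all on the side of lower coordinates. In replicate 2 the shares at the same distances were 100%, 91.3%, 23.4% and 2.90%.

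**Figure D1:**
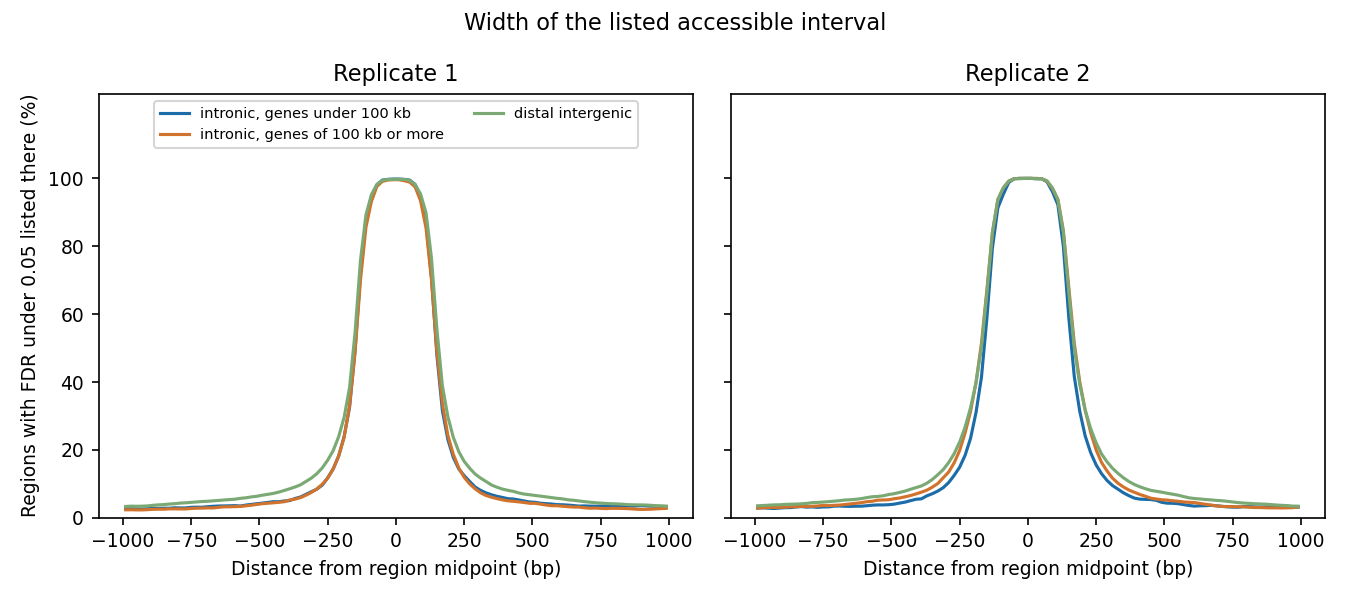
Share of regions with an FDR under 0.05 listed at each distance from the region's midpoint (x axis, bp), in replicate 1 (left) and replicate 2 (right), for the members and both comparison sets. The curves peak at the midpoint in both replicates, with the members at 99.8% and 100% there. Regions are centred on called peaks, so a maximum there is built in.

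The 10 tallest members lay in genes of quite different function. Sptbn4 had heights of 8.54 in replicate 1 and 4.81 in replicate 2, in intron 33 of 35 and 4.02 kb from the nearest TSS. Itpkb had 7.69 and 4.50, in an intron of 78.4 kb. Creb3l1, a CREB-family factor gene of the endoplasmic reticulum, had 6.76 and 4.54 at chr2:92008361-92008580, and Nuak1 had 7.30 and 4.18. Mrps27, which encodes a mitochondrial ribosomal protein, had 6.46 and 4.48 at chr13:99353181-99353460, and Cnih2 had 6.85 and 4.17 in an intron of only 0.400 kb. The log2 ratios of these 6 ran from -0.83 to -0.53, below the median of -0.29 over all members. Gm20431 (5.32 and 4.81), Morn1 (5.22 and 4.50), the basic helix-loop-helix factor gene Atoh8 (5.60 and 3.95) and the zinc finger gene Zfp13 (5.79 and 3.64) completed the list. Their log2 ratios were -0.15, -0.21, -0.50 and -0.67 in that order, so Gm20431 and Morn1 lay above the median of all members. The host's promoter was accessible in both replicates for 7 of the 10, and not for Itpkb, Cnih2 and Atoh8. A taller member was passed over because at least 50% of its 25-mers occur more than once in the genome. That held for 17 members in all, or 0.493%, and 87.8% of members consisted of single-copy 25-mers throughout.

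Tall members were richer in G and C. Median GC content was 50.5% in the lowest 20% of members by the geometric mean of both heights and 54.5% in the highest 20%, with 52.0% over all members. The ratio of observed to expected CpG had a median of 0.248 over all members and 0.425 over the tallest 100. A ratio over 0.6 was found in 6.15% of all members and in 23.0% of those 100. In regions near a TSS the median was 0.730. Eligible intron sequence, meaning all bases that could have been a member's midpoint, had 43.3% GC, and 31.7% of it was soft-masked repeat, against 8.95% on average in the central 200 bp of members.

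The 3447 members lay in 256 Mb of eligible sequence, or 13.5 per Mb. Longer genes had 11.4 per Mb in 553 Mb and intergenic sequence 8.37 per Mb in 1556 Mb. Members were denser than intergenic regions in each library: the ratio was 1.61 for shared regions, 1.76 for the peaks of replicate 1 and 1.46 for those of replicate 2. Assembly gaps were not taken out of these sequence totals, and their part in the ratios was not tested. The ratio to longer-gene introns had no common direction. It was 1.18 for shared regions and 1.27 in replicate 1, but 0.945 in replicate 2. By its own peaks replicate 1 had 5186 in the member class and 6444 were called in replicate 2.

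Density hardly followed gene length within the class. It was 11.8 per Mb in genes under 10 kb, between 12.5 and 14.3 per Mb in the 5 bins from 10 to 100 kb, 13.8 per Mb in genes of 100 to 200 kb and 8.45 per Mb in genes of 500 kb or more. The libraries differed in the trend. Peaks of replicate 1 went from 23.1 per Mb in genes of 10 to 20 kb to 19 per Mb in those of 70 to 100 kb and 12.2 per Mb in those of 500 kb or more. Peaks of replicate 2 went from 22.2 to 27.1 and 22.7 per Mb over the same bins. At the limits of the rule values were close. The 304 members in genes of 90 to 100 kb had median heights of 0.95 and 0.854, and 379 regions in genes of 100 to 110 kb had 0.885 and 0.912. The 251 members at most 2500 bp from a TSS had 1.16 and 0.966, and 319 intronic regions within the 500 bp below the 2000 bp limit had 1.15 and 0.918.

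**Figure D2:**
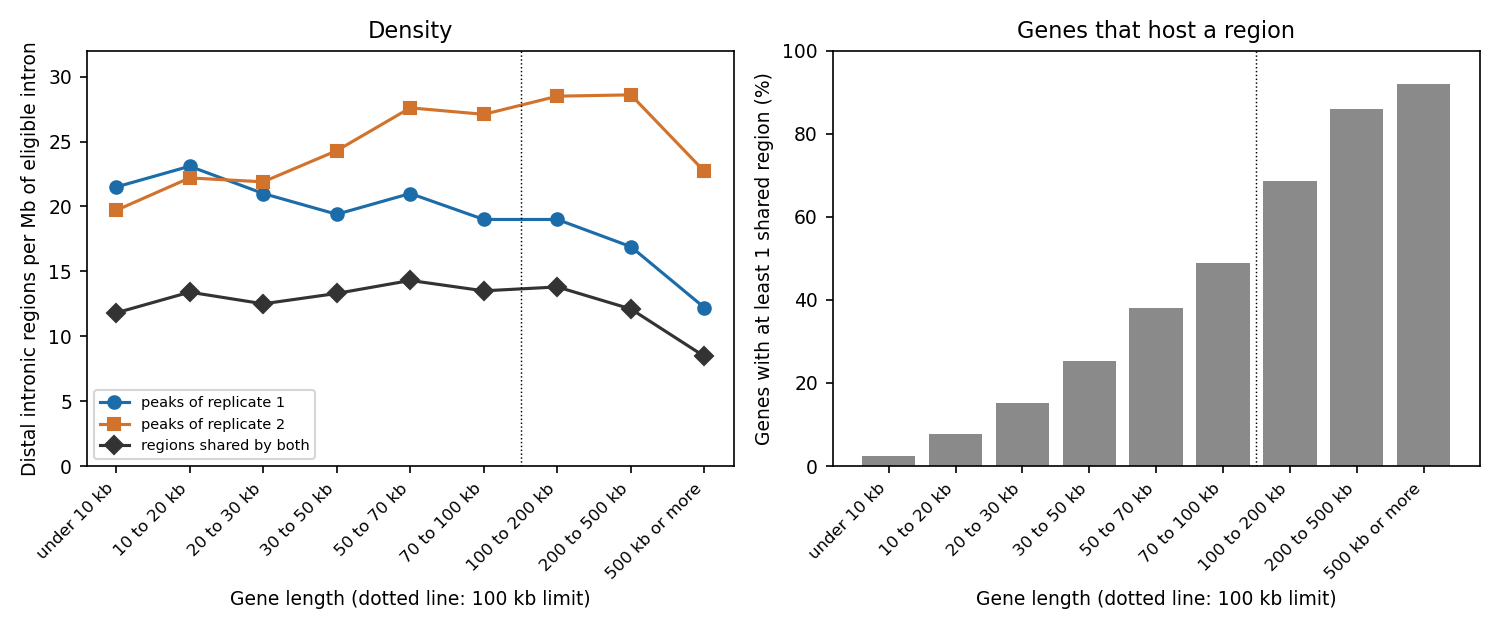
Left: distal intronic regions per Mb of eligible intron (y axis) by gene length (x axis), for peaks of each replicate and for shared regions. Right: percent of genes with eligible sequence that host a shared region. Shared density stays between 11.8 and 14.3 per Mb under 100 kb, while the share of hosting genes goes from 2.31% to 48.9%.

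Of 14267 genes shorter than 100 kb with eligible sequence, 2422 hosted a member, or 17.0% (exact 95% interval 16.4% to 17.6%, counting error only). Hosting varied with the length of the gene, and the share was 2.31% under 10 kb and 48.9% at 70 to 100 kb. A single member was found in 1723 hosts and 2 in 480. The number was 3 or more in 219 hosts, of which 42 had 4, 20 had 5, 7 had 6 and 1 had 7. Members were sparse on the map: the median distance to the nearest other member was 34.8 kb, and 20.8% had another within 5000 bp.

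Clip2, which encodes a linker protein of microtubule plus ends, was the gene with 7 members, in 48.6 kb of eligible sequence. Its tallest, at chr5:134494341-134494540 with a CTCF match inside a footprint of both replicates, had 3.07 and 1.65, and the other 6 ran from 0.812 to 2.50 in replicate 1 and from 0.729 to 1.59 in replicate 2. Another 7 genes held 6 members each. Among them were Ppp2r2c, a regulatory subunit gene of protein phosphatase 2A, Rasgef1a, a Ras exchange factor gene, Tpcn2, an endolysosomal cation channel gene, Galm, Arrb1 and Smurf1. All 6 of Rasgef1a lay in its first intron, between 2.20 and 11.6 kb from the nearest TSS, with similar heights of 1.04 to 1.76 in replicate 1 and 1.04 to 1.70 in replicate 2. Smurf1, a ubiquitin ligase gene of BMP signalling, also had all 6 in its first intron, but lower, at 0.639 to 1.00 and 0.473 to 1.21. Arrb1, the gene of beta-arrestin 1, had 5 of 6 in the first intron, and 2 of its members held a footprinted CTCF match. Those first introns spanned 68.8 of 80.1 kb in Rasgef1a, 62.9 of 89.4 kb in Smurf1 and 46.5 of 71.3 kb in Arrb1. With introns that long, these counts show no preference for the first intron.

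Slc2a3, which encodes the neuronal glucose transporter GLUT3, had 5 members of 1.59 to 2.17 in replicate 1 and 0.912 to 2.03 in replicate 2. Among the hosts with 5 members it was chosen by summed height only.

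Members lay in introns of any rank. The first intron held 1024 members, 29.7% (28.2% to 31.3%), against 28% of eligible sequence. The share was 31.7% of the peaks of replicate 1 and 30.1% of those of replicate 2. Density was 14.3 per Mb in the first intron and 13.1 per Mb in later ones. Heights differed little, with 1.00 and 0.918 in the first intron and 1.02 and 0.844 in later ones. Within 3 kb of a TSS density was 14.6 per Mb, and between 20 and 50 kb it was 14.0 per Mb, while the median height in replicate 1 was 1.11 in the near bin and 0.885 in the far one. In replicate 2 these medians were 0.939 and 0.756. The median member lay 7.64 kb from a TSS and in an intron of 9.67 kb. By intron length, density was 12.5 per Mb in introns under 5 kb, 13.5 per Mb at 10 to 20 kb and 16.1 per Mb in introns of 50 kb or more. Along the gene body, from its start to its end, the 5 equal parts held 12.7%, 21.9%, 22.4%, 24.0% and 19% of members; the rule keeps 2000 bp around TSSs free of them. The host's own TSS was the nearest protein-coding one for 86.2% of members, and 1.65% lay in more than 1 protein-coding gene.

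Genes with an accessible promoter held more members per Mb. The promoter, 500 bp on both sides of any TSS, had a peak in both replicates in 8373 eligible genes, or 58.7%, and in the hosts of 69.5% of members (68.0% to 71.1%). Density was 14.2 per Mb in these genes and 10.4 per Mb in genes with a promoter peak in neither replicate. Genes with an accessible promoter were also longer, with a median of 25.7 kb against 13.9 kb, but the order of the densities was the same in each of 6 length bins. It ran from 18.2 against 7.65 per Mb under 10 kb to 13.7 against 11.2 per Mb at 70 to 100 kb. By the peaks of replicate 1 the densities were 21.5 and 14.3 per Mb, and by those of replicate 2 they were 27.1 and 19.1 per Mb. The 815 genes with a promoter peak in replicate 1 alone had 17.8 members per Mb.

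Members were distributed over all autosomes, with the lowest density on chromosome 3 (10.5 per Mb) and the highest on chromosome 11 (17.0 per Mb). The X chromosome, present in 1 copy in males, had 66 members at 6.37 per Mb, with median heights of 0.613 and 0.581. The autosomes had a median of 13.4 per Mb and heights of 1.02 and 0.871. The peaks of each replicate gave 8.21 and 13.7 per Mb on the X, against 21.1 and 26.1. The Y chromosome held 0 members in 2.31 Mb.

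Transcription factor motifs were searched on both strands in the central 200 bp of each region and in 1230592 tiles of 200 bp of eligible sequence. The words were AP-1 TGANTCA, the E-boxes CAGATG (NEUROD type), CAGCTG (TCF4/ASCL type) and CACGTG (MYC/USF/CLOCK type), RFX GTTGCCA, CRE TGACGTCA, EGR GCGNGGGCG, SP/KLF CCGCCC, ETS CCGGAAGT, PU.1 GAGGAAGT, SOX ACAATGG, ROR/REV-ERB TAGGTCA, POU ATGCAAAT, homeobox TAATTA, T-box AGGTGTGA, forkhead TGTTTAC, TEAD GGAATGT, NRF1 GCGCATGCG and YY1 AAGATGGCG, plus CTCF, MEF2 and NFI consensus sequences. N stands for any base, so AP-1 values are for all forms of its word, which were not counted apart by central base. EGR and SP/KLF matches can share bases, as can NFI and RFX ones. Of the 3447 members 981 held none of the 22 motifs, 1362 held 1 and 1104 held more. Members had more G and C than eligible sequence (52.0% against 43.3%), and the part of this in the motif shares was not tested.

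CTCF was the motif in which members and other intron sequence differed most. It was found in 489 members, 14.2% (13.0% to 15.4%), and in 0.130% of tiles, a ratio of 109. The share was 9.67% in longer-gene introns, 12.9% in intergenic regions and 3.65% near TSSs. All eligible sequence held 1798 CTCF matches, and 27.8% of them lay in a member, which together cover 0.308% of its bases. Of the 494 matches in members' windows 91.5% were at least 50% covered by a footprint in both replicates. By a different measure, 9.99% of the single bases of these windows lay in footprints of both replicates. The matches were central, with a median distance of 9 bp from the midpoint, and 96.6% lay within 50 bp. They pointed along the host gene in 244 cases and against it in 250. Members with CTCF were less often in the first intron, 19.4% against 31.4% of the others, and in shorter hosts, with a median of 44.7 kb against 51.3 kb for all members.

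Several rarer words were also more frequent in members than in tiles. EGR matched 28 members (0.812%, 18.5 times the share of tiles), NFI 43 (1.25%, 14.9 times), NRF1 10 (0.290%, 9.70 times), CRE 20 (0.580%, 5.51 times) and SP/KLF 368 (10.7%, 4.95 times). These words, NFI apart, were more frequent near TSSs, where SP/KLF matched 47.7% of regions and EGR 7.57%. Footprints of both replicates covered 76.7% of NFI matches, 60.7% of EGR, 54.5% of CRE and 35.1% of SP/KLF matches. The tallest member with a footprinted NFI match, in 1700029H14Rik, had 3.88 and 2.94 and also held a CTCF match, and that with NRF1, in Thra, had 3.61 and 3.62. Of the 15 YY1 matches 80.0% were covered. RFX matched 196 members (5.69%, 3.14 times), and 38.7% of its matches were covered.

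The most frequent words were E-boxes and AP-1, and most of their matches had no footprint in both replicates. The NEUROD-type E-box was in 22.9% of members (15% of tiles), the TCF4/ASCL type in 20.6% (8.14%) and AP-1 in 14.4% (5.81%). Footprints of both replicates covered 16.0%, 12.9% and 5.17% of their matches. In longer-gene introns AP-1 was in 16.6% of regions and the NEUROD type in 24.7%. MEF2, the site of activity-dependent MADS-box factors, was in 0.580% of members and 1.24% of longer-gene regions. For 4 words the share in members was under 0.8 times that in tiles: homeobox (3.34% against 6.22%), ROR/REV-ERB (1.22% against 1.98%), SOX (1.77% against 2.84%) and POU (0.986% against 1.28%).

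**Figure D3:**
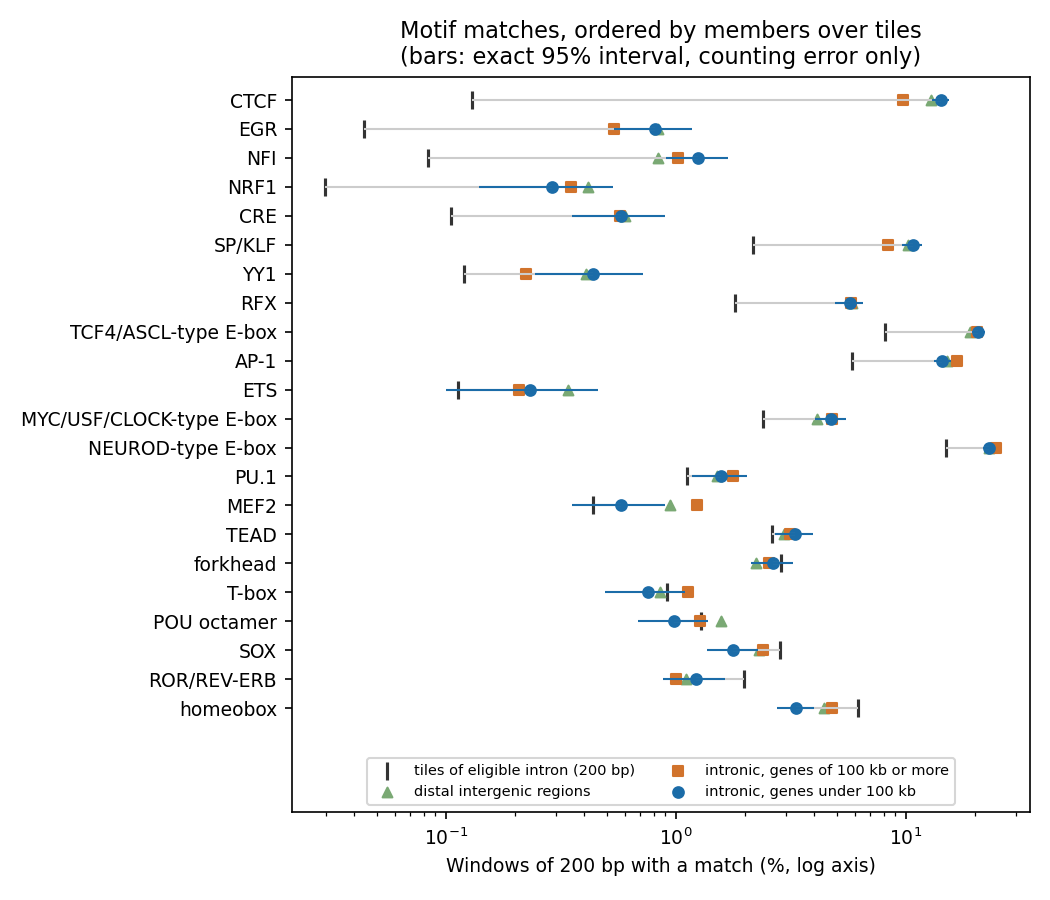
Percent of 200 bp windows with each motif (x axis, log scale) in members, both comparison sets and tiles of eligible intron, in order of the ratio of members to tiles. The CTCF points of the 3 region sets lie far from the tile mark at 0.130%.

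Motif content differed with height. CTCF was in 9.42% of the lowest 20% of members by height and 21.7% of the highest 20%, and SP/KLF in 7.39% and 16.8%. Homeobox was in 4.64% and 1.88%, and members with it had lower median heights than the others in both replicates (0.872 against 1.02 and 0.783 against 0.871). AP-1 was in 14.9% of the lowest 20%, 17.3% of the next and 11.7% of the highest, but its order by height turned between replicates: members with AP-1 had a median of 0.868 against 1.05 for the others in replicate 1, and 0.912 against 0.858 in replicate 2. The NEUROD-type E-box was nearly level, with 23.0% and 21.7%. Members with CTCF stood out in height mainly in replicate 1, with a median of 1.41 against 0.963 for the others. In replicate 2 these medians were 0.885 and 0.864. A footprint in both replicates was present in 85.1% of the lowest 20%, 100% of the highest 20% and 95% of all members, against 94.3% in longer-gene introns and 93.3% in intergenic regions.

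**Figure D4:**
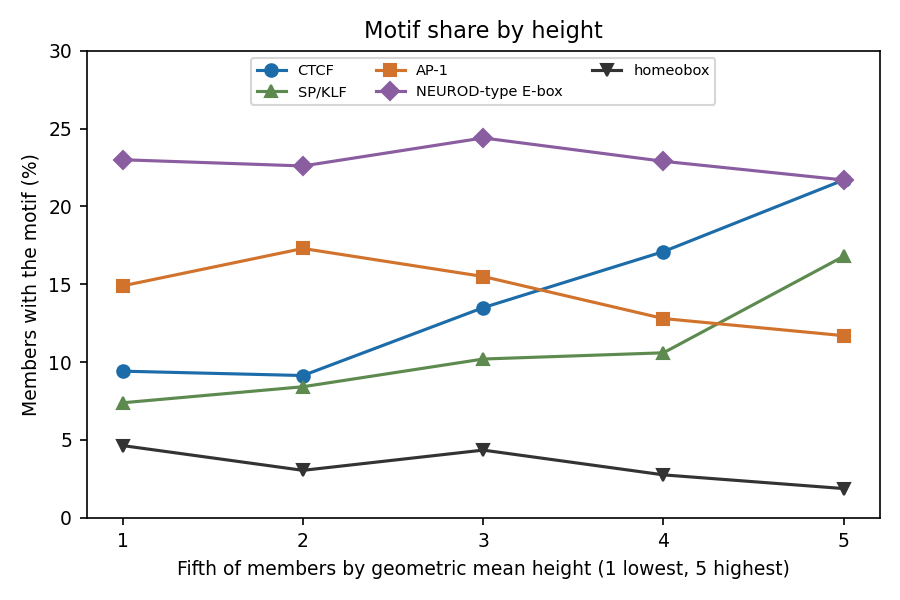
Percent of members with each of 5 motifs (y axis) in 5 equal groups of members by geometric mean height (x axis). In the highest group CTCF reaches 21.7% and SP/KLF 16.8%, and homeobox is lower there than in the lowest. AP-1 is highest in the next to lowest group, at 17.3%, and its order by height differs between replicates. By median height, members with CTCF stand out mainly in replicate 1.

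The libraries differed in members with CTCF. Members with a CTCF match had median heights of 1.41 in replicate 1 and 0.885 in replicate 2, and the others had 0.963 and 0.864. This log2 ratio had a median of -0.70 with CTCF and -0.21 without, and replicate 2 was higher in 4.50% of the former and 35.9% of the latter. Members with AP-1 were the opposite case, with a median log2 ratio of 0.01, against -0.35 without, and replicate 2 was higher in 50.2% of them. The 34 members with the POU word had a median log2 ratio of 0.21. The CTCF and AP-1 patterns were also present outside the members: the ratio with CTCF was -0.64 in longer-gene introns and -0.70 in intergenic regions, and with AP-1 it was 0.23 and 0.21.

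**Figure D5:**
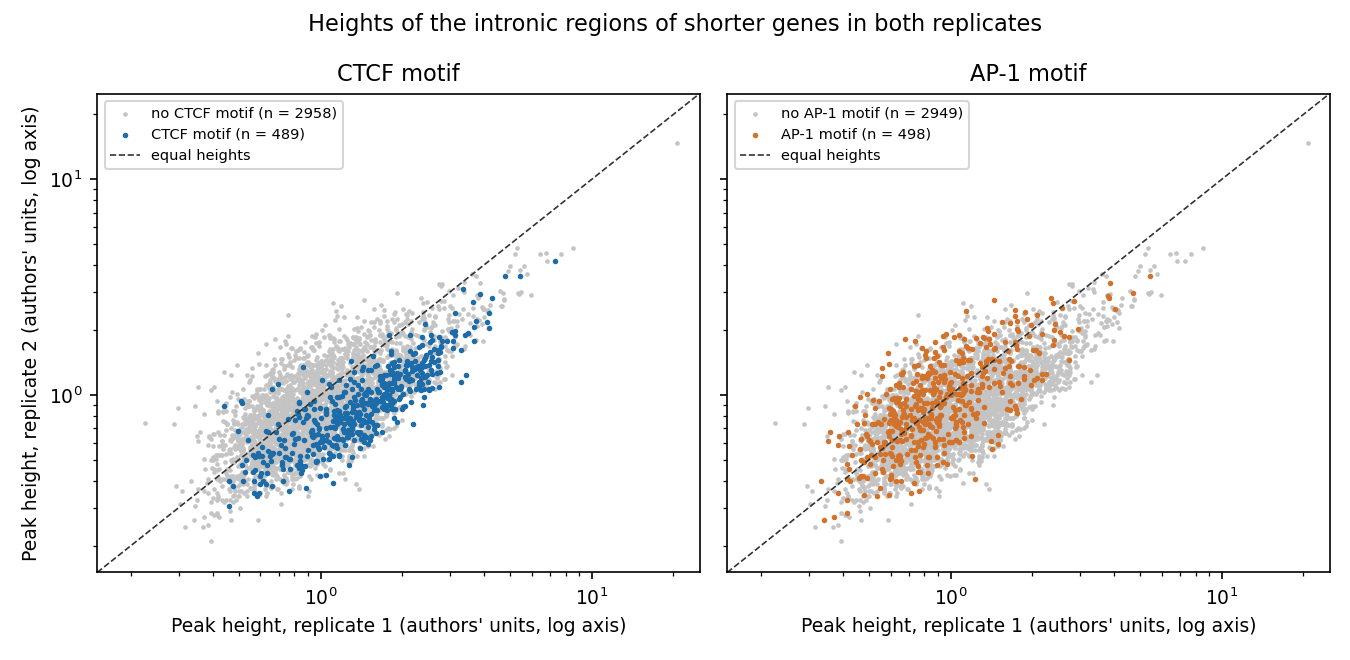
Height of each member in replicate 1 (x axis) and replicate 2 (y axis), both on log axes, with members that hold a CTCF match (left, 489) or an AP-1 match (right, 498) coloured. The CTCF points lie below the dashed line of equal heights in nearly all cases, and the AP-1 points lie on both sides of it.

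Peaks called in 1 library alone showed a similar contrast. Of the 5186 member-class peaks of replicate 1, 67% had a partner in replicate 2, 12.9% had one in its longer list only and 20% had none. For the 6444 peaks of replicate 2 these shares were 54.0%, 21.1% and 25%. Peaks without any partner were low, with median heights of 0.233 in replicate 1 and 0.506 in replicate 2. Those of replicate 1 had a median GC content of 51.0%, AP-1 in 5.77% and the homeobox word in 2.31%. Those of replicate 2 had 44.5% GC, AP-1 in 25.4% and the homeobox word in 7.64%. CTCF was in 4.23% and 1.99% of them, and in 17.0% and 2.58% of the peaks with a partner in the longer list only. The depth of the libraries is unknown, and its part in these differences was not tested.

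The host genes were also read through 21 gene lists of cell types and functions, set beside the 17.0% of eligible genes that host a member. Hosting depends on length, so beside the hosts of a list its number of members is given against the number that the mean density would put into the list's own eligible sequence, except for ion channel genes. Voltage-gated ion channel genes hosted most often, in 5 of 6 cases. Among these, Hcn2, a pacemaker channel gene, had a member of 1.10 and 0.844, and Kcnc1 had 0.881 and 0.810. Synaptic vesicle genes hosted in 6 of 12 cases, with 7 members against 3.64. They included the priming factor gene Unc13a (2.45 and 1.09), the dynamin gene Dnm1 (1.55 and 1.5) and Syp, of synaptophysin (1.54 and 1.46).

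Among markers of excitatory neurons 3 of 9 eligible genes hosted, with 7 members against 2.61. Baiap2, a postsynaptic scaffold gene, had a tallest member of 5.44 and 3.57 at chr11:119991341-119991580, Camk2a, the gene of the kinase CaMKII alpha, 2.70 and 1.57, and Camk2b 1.46 and 1.65. Glutamate receptor and postsynapse genes hosted in 2 of 7 cases with 4 members against 2.38: Dlg4, of the scaffold PSD-95, had 5.01 and 3.96 with 9 and 11 footprints at chr11:70021381-70021760, and Dlgap3 had 2.01 and 1.67. Of the cortical layer list, Bcl11b, a factor of deep-layer neurons, held all 3 members, against 2.22 at the mean density, the tallest at 2.70 and 1.28. Pan-neuronal genes hosted in 3 of 8 cases with 4 members against 3.80, close to the mean density, through Stmn2 (1.5 and 1.31), Gap43 (1.16 and 1.01) and Uchl1 (1.02 and 1.09). Of the inhibitory neuron list, 3 of 11 hosted with 4 members against 2.49, among them the GABA synthesis genes Gad1 (2.37 and 1.70, at chr2:70558241-70558420) and Gad2 (0.414 and 0.446). The Gad1 and Gad2 members lay in genes whose promoter was not accessible in both replicates. Transcription regulators of neurons hosted in 3 of 9 cases with 7 members against 4.75, through Mef2d (3.36 and 2.50), Nfic (2.68 and 1.38) and Klf9 (1.48 and 1.86). Immediate early genes hosted in 2 of 10 with 2 members against 1.82, through Fosl2 (0.725 and 0.918) and Nr4a2 (0.954 and 0.641). The axon and myelin adhesion list hosted in 2 of 6 cases with 2 members against 1.02, through Cntn2 and Rtn4r.

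Genes of microglia and vessels hosted members while few of their promoters were accessible in bulk tissue. Of the microglia list, 3 of 10 genes hosted with 3 members against 1.21. Among them Spi1, which encodes the factor PU.1, had 2.88 and 1.42 at chr2:91101481-91101680, and Csf1r, the receptor gene needed for microglial survival, 0.781 and 0.689. Promoters were accessible in both replicates in 1 of the 10. Of the mural list, 5 of 9 hosted with 8 members against 2.92, and 0 of the 9 had an accessible promoter. Pdgfrb, the pericyte receptor gene, had 2.56 and 1.43, Cspg4, the NG2 gene, 1.32 and 1.35, Myh11, of smooth muscle myosin, 1.49 and 0.594, and Acta2 0.704 and 0.621. The tallest members of Pdgfrb, Myh11 and Acta2 each held a footprinted match to the CTCF word. So did the tallest members of Baiap2, Camk2a, Stmn2 and Gad1 in the neuron lists above. All of these are the tallest of their genes, and CTCF words were in 14.2% of all members and 21.7% of the highest 20%. Of the endothelial list, 3 of 7 hosted with 6 members against 3.26, through Pecam1 with 4 members (tallest 1.37 and 0.972), Cdh5 (0.648 and 1.17) and Slc2a1 (0.907 and 0.770). Oligodendrocyte genes hosted in 3 of 15 cases with 3 members against 2.98, the tallest in Opalin (2.71 and 1.47), followed by Fa2h (0.777 and 0.810). Oligodendrocyte precursor genes hosted in 3 of 6 with 4 members against 1.53, through Cspg4, Nkx2-2 (1.10 and 0.689) and Vcan. Cspg4 is in both lists, and its 2 members are the same regions as those counted in the mural list. Of the astrocyte list 1 of 10 hosted with 2 members against 1.29, the glutamate transporter gene Slc1a3 with 0.963 and 0.939.

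Circadian clock genes hosted in 5 of 10 cases with 7 members against 3.15. Hlf, a clock output factor gene, had 3.73 and 3.55 at chr11:90369681-90369900 with a footprinted CACGTG E-box, the type bound by CLOCK, and the repressor gene Cry2 had 2.64 and 2.31 at chr2:92423801-92424040, also with a footprinted CACGTG. Per2 had 1.64 and 0.723 and Cry1 had 1.02 and 0.723, both without that word. CACGTG was found in 4.73% of all members, and 18.6% of its matches were covered by footprints of both replicates. Lists that stand for other functions or tissues held 0 or 1 members. Housekeeping genes had 0 of 9 hosts, ribosomal and proteasome genes 0 of 10 and liver genes 0 of 12, in sequence where the mean density would put 1.23, 1.26 and 1.78 members. Muscle and heart genes had 1 of 9, with 1 member against 0.984, the myoglobin gene Mb with 0.803 and 0.763. At these sizes a list with 0 members cannot be told from the mean density. The counts of the other lists are small too, and whether any of them exceeds the mean density was not tested.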

How the data were processed

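DNase-seq of the left cerebral cortex was analysed in 2 samples of 1 group. For each sample the authors deposited 2 peak lists, a footprint list and a track of false discovery rates, on mm10 per the labels. The deposited peak heights are a signal on the authors' own scale. Per the files, the deposited FDR track gives q-values, for bases under 0.05 only. The value column of the deposited footprint lists was constant, and only footprint positions were used. The scaling, aligner, callers, settings and mapping of CAST/EiJ alleles were not given in the sources used here. Sequencing depth is unknown.

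The shorter list of each sample was used, with overlapping peaks joined. Peaks of both samples that overlapped by at least 1 bp were merged. Genes and TSSs came from GENCODE M21 (21938 protein-coding genes on 21 chromosomes) and sequence from GRCm38.p6. The longest protein-coding transcript holding the midpoint numbered the introns. Eligible sequence comprised bases that could be a member's midpoint. A motif counted as footprinted where footprints covered at least 50% of it. Shares carry exact 95% Clopper-Pearson intervals, which cover counting error only, and neighbouring regions are not independent. The members, the 21 gene lists and the 22 motifs were chosen with earlier results of these data known. Named were the 10 hosts with most members (ties by summed height), the 10 tallest members by geometric mean height with fewer than 50% of 25-mers in several copies, up to 4 genes per list by tallest member, the tallest unique member with a footprinted match for the 4 motifs with the largest ratio to tiles, and values at both sides of the 2 kb and 100 kb limits. Some genes that this rule names are not reported here. Region building, distances and motif search were checked on simulated data. Python 3.11.15, numpy 2.4.6, pandas 2.3.3, scipy 1.17.1 and matplotlib 3.10.9 were used.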

Additional observations from a re-analysis of the deposited data

How the results depend on the processing

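No paired analysis was possible because there is 1 group, so replicate numbers pair nothing. Over 12 alternative settings 128 values were computed for 15 results. Of these values 71 moved by less than the spread between replicates. Fixed limits were used instead for the Spearman rho (0.05), the share with a footprint in both (1 percentage point) and the number of members (a fold limit). The spread comes from 2 values. It was 0.0602 percentage points for the TCF4/ASCL-type share and 5.38 for AP-1, so the count of 71 is no measure of stability. The direction of the density ratio to longer-gene introns turned in 1 setting: it was 0.945 without replicate 1 and 1.27 without replicate 2, against 1.18 for shared regions, and 1.57 with peaks above their list's median height. Using 1 replicate alone gave 5186 to 6444 members, 20.3 to 25.2 per Mb, 30.1% to 31.7% in the first intron, 72.2% to 80.7% with an accessible host promoter, median heights of 0.833 and 0.689 in replicates 1 and 2, and CTCF in 8.64% to 12.5% of members. The longer peak lists gave 6459 members, 25.2 per Mb, 30.9% in the first intron, 77.7% with an accessible host promoter, 83.3% with a footprint in both, median heights of 0.708 and 0.669, and CTCF in 10.3%. Peaks above the median height of their list gave 1697 members, 6.63 per Mb, 31.1% in the first intron, 99.1% with a footprint in both, median heights of 1.45 and 1.13, a Spearman rho of 0.485 and CTCF in 19%. With a TSS distance over 5000 bp there were 2277 members, 26.6% of them in the first intron, and with genes under 50 kb 1675 members, 62.6% with an accessible host promoter. An overlap of at least 50% of both peaks gave 28.5% in the first intron, and the shortest transcript 31.9%. In a window of 100 bp AP-1 was in 8.62% and the NEUROD-type E-box in 13.9% of members, the TCF4/ASCL type in 11.4% (against 20.6%) and SP/KLF in 6.44% (against 10.7%), and over whole regions the NEUROD type was in 25.3%. CTCF stayed between 8.64% and 19% of members in every setting tried. The causes of these shifts were not tested. Depth is unknown, so whether low members are missed in either library cannot be stated.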
